A study of Homo sapiens with 4 samples.

Results

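The KCNMA1 locus was examined for FOXA2 binding in PC3 cells, measured by ChIP-seq, the sequencing of DNA recovered with an antibody to the factor. PC3 is a prostate cancer cell line that grows without androgen. The groups were PC3 cells given 50 µM GSK2879552 for 4 hours and PC3 cells given vehicle, both in medium with 5% charcoal-stripped serum, and the labels name no genetic change in either. GSK2879552 inhibits LSD1 (KDM1A), a demethylase that removes methyl groups from histones and from other proteins. Each group was represented by 1 peak list that covered 2 sequencing lanes of 1 library, so the spread between cultures was not measured and no test between the groups was possible. The locus was taken as all peaks whose summit lay in hg19 chr10:78500000-79500000, so members were chosen by their measured summit positions, and the locus itself with the peaks of both lists known; its values are a description. It held 24 of 14846 peaks in the GSK2879552 list and 30 of 21308 peaks in the vehicle list, or 54 of 36154 in all.

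KCNMA1 encodes the pore-forming alpha subunit of the BK channel, a potassium channel of large conductance that opens on depolarisation and on a rise of intracellular calcium. It lets potassium leave the cell. In smooth muscle and neurons, from which the channel is best known, this limits calcium entry. BK currents have also been described in prostate cancer cells. FOXA2 is a forkhead factor that can bind its motif in closed chromatin and that often occupies enhancers far from promoters, introns of long genes included. The gene spans 78.63 to 79.40 Mb, bounds known here to 10 kb, and is transcribed from the high towards the low coordinate. In RefSeq (GRCh38.p14) the span of KCNMA1 contains 6 long noncoding RNA genes, KCNMA1-AS1, KCNMA1-AS2 and KCNMA1-AS3 among them, and 2 pseudogenes; its neighbouring protein-coding genes are LRMDA and DLG5. An exon and intron annotation of hg19 was not used here, so summits are placed by distance alone.

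The peaks of both lists left the stated 5′ end of the gene free, which says nothing of starts further along the gene. RefSeq lists 2 promoters of KCNMA1, and both are shown. They are the 250 bases before each start on the minus strand of GRCh38.p14, at chr10:77637809-77638058 for the upstream start and chr10:77350762-77351011 for an internal start 287 kb further along the gene. Capitals mark matches to the AP-1 motif TGANTCA.
Upstream promoter: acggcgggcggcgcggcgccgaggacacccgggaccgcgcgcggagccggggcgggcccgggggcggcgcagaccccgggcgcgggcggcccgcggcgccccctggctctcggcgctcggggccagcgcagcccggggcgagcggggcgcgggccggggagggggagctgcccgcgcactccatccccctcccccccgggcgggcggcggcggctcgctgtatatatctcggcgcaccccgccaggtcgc
Internal promoter: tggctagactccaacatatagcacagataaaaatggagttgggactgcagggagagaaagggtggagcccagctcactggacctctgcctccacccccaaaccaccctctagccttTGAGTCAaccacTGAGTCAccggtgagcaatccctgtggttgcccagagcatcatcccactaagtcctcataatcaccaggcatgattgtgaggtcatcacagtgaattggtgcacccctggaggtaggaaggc
The forkhead motif TGTTTAC, its variant TGTTTGC and its further variant TATTTAC, searched as 1 set on both strands, matched neither sequence, against 8.27% of 35116 RefSeq promoters of the same length with a match. This says only that these letters are not in these windows. TGANTCA matched the internal promoter 2 times and the upstream promoter not at all, and 6.57% of all promoters held it. The upstream promoter was 85.6% G and C with 46 CG dinucleotides, the internal one 53.6% with 1, and the median promoter 58.0% with 11. These positions belong to another build than the peaks and are not set beside them.

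FOXA2 peaks lay along most of KCNMA1 in both libraries, and the 4 shared sites strongest in vehicle by −log10 p lay in its middle and 3′ sections. Within the gene, 21 GSK2879552 and 28 vehicle summits were called. The 3′ section of the gene (257 kb) had 4 GSK2879552 and 5 vehicle peaks, the middle section 9 and 14, and the 5′ section 8 and 9. Beyond the 5′ end the window held 2 peaks of each list, and beyond the 3′ end 1 GSK2879552 peak and none of the vehicle list. Around the stated 5′ end at 79.40 Mb no peak was called over 91.2 kb in the GSK2879552 list (79389479 to 79480654) and over 91.1 kb in the vehicle list (79389491 to 79480618). The summit nearest to that end lay 10.7 kb inside the gene in both lists. Summits were a median of 27.0 kb apart in GSK2879552 and 17.8 kb apart in vehicle. Between summits inside the window, the largest gap in GSK2879552 was 118 kb, from 78802652 to 78920553. It held 3 vehicle summits that had no partner. In vehicle the largest was 93.7 kb, from 79223481 to 79317189, a stretch also empty in GSK2879552. These gaps leave out the window edges. In vehicle no summit lay between 78478943, before the window, and 78728402, so the 3′ end of the gene was empty in that list.

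**Figure D1:**
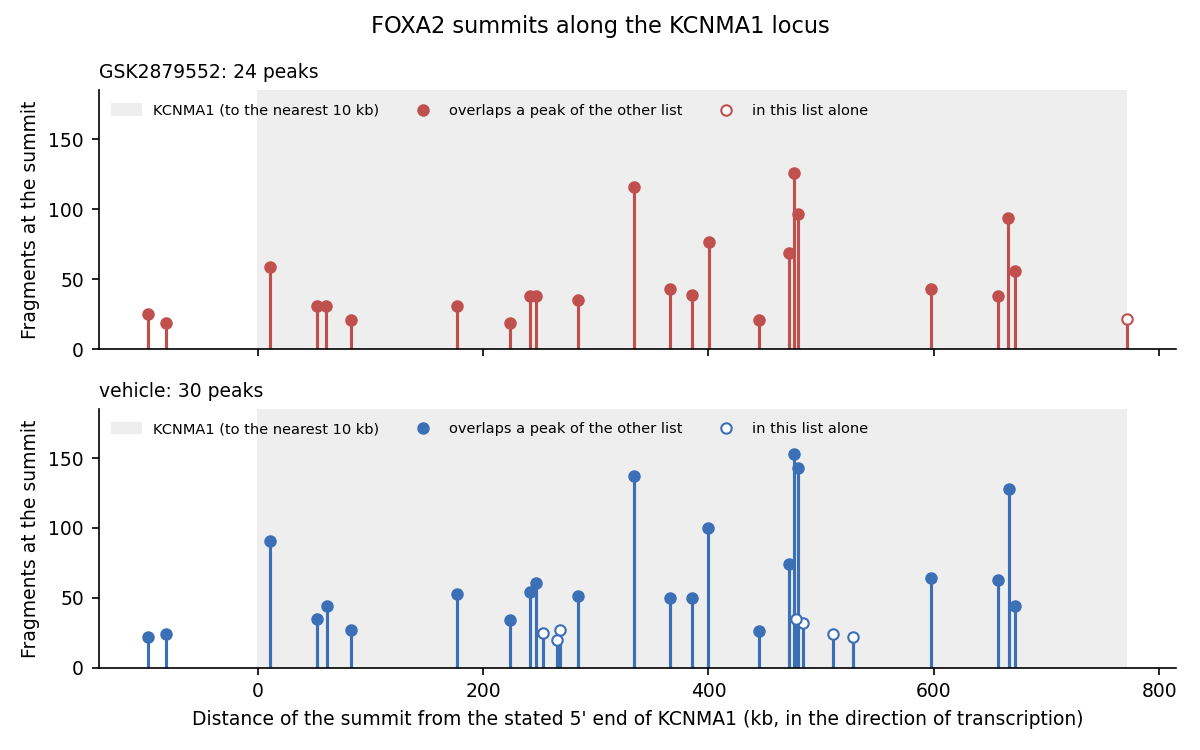
Sequenced fragments covering each FOXA2 summit (y axis) against its distance in kb from the stated 5′ end of KCNMA1 (x axis), for GSK2879552 (24 peaks, above) and vehicle (30 peaks, below). Filled points overlap a peak of the other list and open points do not; the grey band is the gene, and the open points of the vehicle list carry 20 to 35 fragments.

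The peaks of both lists were largely the same sites. Of the GSK2879552 peaks in the window, 23 of 24 overlapped a vehicle peak by at least 1 bp, where 89.2% of the whole list did. Of the vehicle peaks, 23 of 30 (76.7%, exact binomial 95% interval 57.7 to 90.1, counting error only) overlapped a GSK2879552 peak, where 62.0% of the whole list did. That interval holds the share of the whole list. Over 117 windows of 1 Mb with 20 or more vehicle peaks, the median share was 68.2%. A higher share than at the locus was found in 27 of them. The 23 overlaps were 23 pairs, so the locus held 31 sites: 23 in both lists, 1 in the GSK2879552 list alone and 7 in the vehicle list alone. The ratio of peak numbers, GSK2879552 over vehicle, was 0.800, where that of the whole lists was 0.697. An interval of 0.448 to 1.42 around the locus ratio covers counting error only and treats the lists as independent. Since 23 sites were in both lists, they were not independent, and the interval cannot decide whether these ratios differ. The peaks covered 6.72 kb in GSK2879552 and 9.37 kb in vehicle.

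The strength of a site was read as the number of fragments covering its summit, computed from the deposited values. By the authors' −log10 p in vehicle, the strongest site of the locus was chr10:79065448-79065806, 334 kb inside the gene. Its summit was covered by 116 fragments in GSK2879552 and 137 in vehicle, a ratio of 0.845 (0.654 to 1.09) after scaling for depth. It ranked 30 in the GSK2879552 list and 28 in the vehicle list by −log10 p. The next, chr10:78733573-78734048, lay 666 kb inside the gene and had 94 fragments in GSK2879552 and 128 in vehicle, a ratio of 0.733 (0.555 to 0.964). For both sites the GSK2879552 number was the lower one, and only at the second did the counting interval of the ratio lie below 1.

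A further 3 of the 10 strongest pairs formed a tight cluster 472 to 479 kb inside the gene. At chr10:78923730-78924051, the most densely covered summit of the locus in both libraries, 126 fragments were counted in GSK2879552 and 153 in vehicle. Beside it, chr10:78920375-78920779 had 97 fragments in GSK2879552 and 143 in vehicle. The flank of the cluster, chr10:78928019-78928306, had 69 in GSK2879552 and 74 in vehicle. The scaled ratios of these 3 neighbouring sites ran from 0.677 (0.518 to 0.882) at chr10:78920375-78920779 to 0.931 (0.660 to 1.31) at chr10:78928019-78928306, with overlapping counting intervals. Including 2 peaks of the vehicle list alone, the vehicle summits of the cluster spanned 11.7 kb and its summits summed to 292 fragments over 3 GSK2879552 peaks and 437 over 5 vehicle peaks.

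At chr10:79389094-79389491, the site nearest to the stated 5′ end, 59 fragments covered the summit in GSK2879552 and 91 in vehicle, a ratio of 0.647 (0.458 to 0.908). At chr10:78999808-79000140 the numbers were 77 in GSK2879552 and 100 in vehicle. The remaining 3 of the 10 strongest pairs were chr10:78743378-78743692 with 38 and 63 fragments in GSK2879552 and vehicle, chr10:78802448-78802800 with 43 and 64, and chr10:79152664-79153045 with 38 and 61. Each of these 10 sites had fewer fragments in GSK2879552. Since vehicle values set this order, lower GSK2879552 numbers can be found at such sites without any difference between the groups.

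The other 13 pairs had 19 to 56 fragments in GSK2879552 and 22 to 54 in vehicle. The lowest ratio of the locus was at chr10:79176204-79176479, with 19 fragments in GSK2879552 and 34 in vehicle, a ratio of 0.558 (0.301 to 1.01). The highest was at chr10:78728235-78728561, with 56 in GSK2879552 and 44 in vehicle, a ratio of 1.27 (0.841 to 1.93). Its neighbour chr10:78733573-78734048 had a ratio below 1. The other pair with more fragments in GSK2879552 was chr10:79497333-79497713, beyond the 5′ end, with 25 in GSK2879552 and 22 in vehicle. The counting intervals of the lowest and both higher ratios include 1.

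Over the 23 pairs, summit fragments were lower in GSK2879552 at 21 and higher at 2; over all pairs of the 2 lists 78.0% were lower. The median was 38 fragments (interquartile range 31.0 to 64.0) in GSK2879552 and 53 (39.5 to 82.5) in vehicle, against 19 and 24 over all pairs. Scaled for depth, the median log2 ratio was -0.38 (interquartile range -0.57 to -0.26), against -0.32 (-0.57 to -0.08) over all 13200 pairs. Summed over the pairs, 1166 fragments (exact Poisson 95% interval 1100 to 1235) were counted in GSK2879552 and 1528 (1452 to 1607) in vehicle. Their ratio was 0.762 (0.705 to 0.822), whose interval holds the ratio of 0.798 over all pairs. At least 1.5-fold lower were 5 of the 23 pairs, against 24.9% of all pairs, and at least 1.5-fold higher were 0 of 23, against 0.826%. Such intervals cover counting error only, since each group had 1 library. They take each fragment as an independent count, and how duplicate reads were treated was not given.

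**Figure D2:**
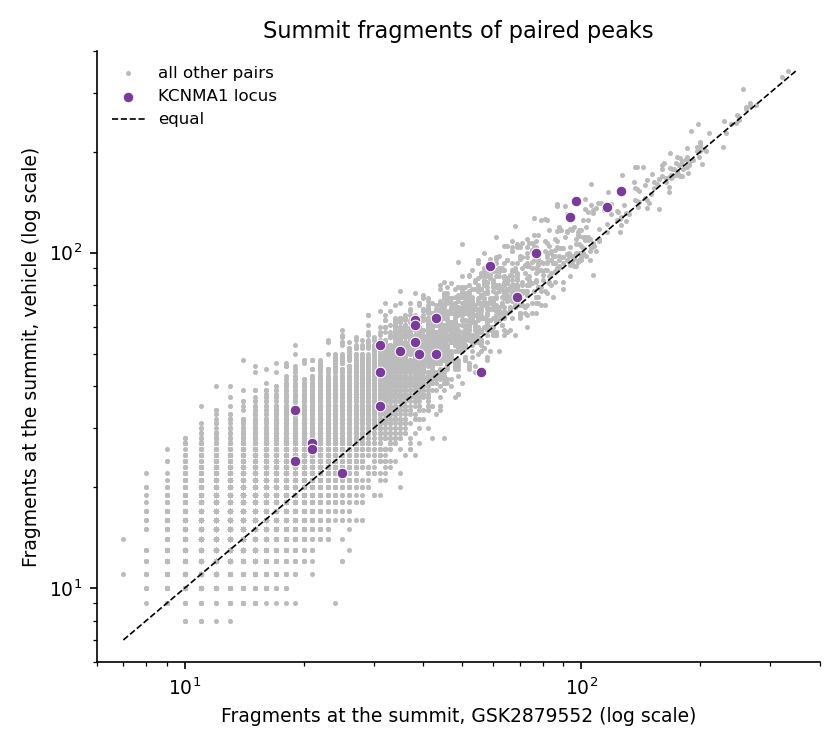
Fragments at the summit of each pair in GSK2879552 (x axis, log scale) and in vehicle (y axis, log scale), for the 23 pairs of the KCNMA1 locus (purple) and all other pairs (grey); the dashed line marks equal numbers. All but 2 locus pairs lie above the line, within the cloud of the other pairs and towards its upper end.

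The ratios of the sections of the gene overlapped. The median was -0.51 (log2) over 4 pairs in the 3′ section, -0.31 over 9 pairs in the middle section and -0.57 over 8 pairs in the 5′ section, with ranges from -0.73 to 0.34, from -0.56 to -0.10 and from -0.84 to -0.18. The 2 pairs beyond the 5′ end had -0.34 and 0.18. Among windows of 1 Mb with 10 or more pairs, 101 of 302 had a lower median than the locus, and their medians ran from -0.70 to 0.10.

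**Figure D3:**
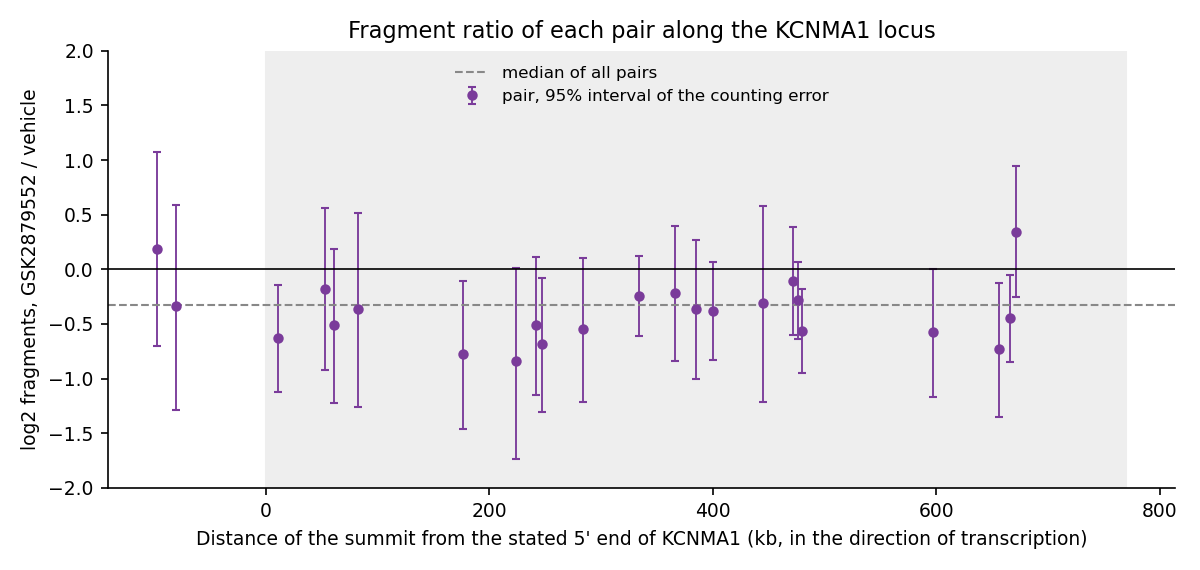
Log2 ratio of summit fragments, GSK2879552 over vehicle and scaled for depth (y axis), of each of the 23 pairs against its distance in kb from the stated 5′ end of KCNMA1 (x axis). Bars are 95% intervals of the counting error, the dashed line is the median of all pairs (-0.32) and the grey band is the gene; the points run from -0.84 to 0.34.

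Shared sites had close summits in both libraries, and most were narrower in GSK2879552. Paired summits lay a median of 11 bp apart (0 to 41), against 23 bp over all pairs. The locus pairs also had more fragments, a median of 38 in GSK2879552 and 53 in vehicle against 19 and 24. The part of these numbers in the summit distance was not tested. Peaks were narrower in GSK2879552 at 19 of 23 pairs, against 75.0% of all pairs. The median width difference, GSK2879552 minus vehicle, was -27 bp over the 23 pairs and -33 bp over all pairs. At the locus the differences ran from -153 bp at chr10:79497333-79497713, with widths of 228 bp in GSK2879552 and 381 bp in vehicle, to 20 bp at chr10:79346941-79347164, with 244 bp in GSK2879552 and 224 bp in vehicle. The shortest interval reported was itself shorter in GSK2879552, 168 bp against 175 bp in vehicle.

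A single site was called in GSK2879552 alone, at chr10:78628370-78628544. It had 22 fragments over a local background of 4.22, and the nearest vehicle summit was 99959 bp away. It is the first peak of the window, 772 kb from the stated 5′ end and so at the 3′ end of KCNMA1 within the 10 kb to which the bounds are known. By −log10 p it ranked 10602 in its list of 14846.

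The 7 sites called in vehicle alone ranked low by −log10 p and by fold, but not by fragments. By −log10 p they ranked 14555 to 20921 in their list of 21308. They had 20 to 35 fragments, more than 54.1% to 83.8% of the vehicle list, whose median was 18. At most 4.48% of the vehicle list had a fold enrichment below theirs of 2.73 to 4.37. The strongest by −log10 p, chr10:79131634-79131857, had 27 fragments and a GSK2879552 summit 16.0 kb away. At chr10:79146782-79147034, with 25 fragments, one lay 5.98 kb away. The sites chr10:78889459-78889689 and chr10:78871675-78872023, with 24 and 22 fragments, had none within 30.9 kb and 48.7 kb. At the edge of the dense cluster, chr10:78916368-78916565 had 32 fragments and a GSK2879552 summit 4.06 kb away. The last, chr10:79134187-79134479, had 20 fragments and a GSK2879552 summit 18.6 kb away. Within the cluster, chr10:78922482-78922776 had 35 fragments, as many as the shared site chr10:79346941-79347164 in vehicle, and the neighbouring GSK2879552 summit was 1.34 kb away. Its local background, which may include fragments of the neighbouring sites, was 12.2 fragments and its fold 2.73. A site in 1 list alone is one without a call in the other, not one shown to be free of FOXA2 there.

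Every summit of the locus stood on a raised local background, the coverage by fragments expected at the summit. It is read here as the library's own coverage of the surrounding 10 kb, which holds only if no control library was used. Read so, it includes the fragments of the peak itself and of any neighbouring peaks within those 10 kb. Their part in the background was not tested. The median was 5.45 fragments in GSK2879552 and 5.49 in vehicle, 5.04 and 5.09 times the genome-wide floor of each library, and above that of 96.2% and 97.0% of the peaks of each list. The lowest were 3.40 times the floor in GSK2879552 and 3.26 times in vehicle, and the highest, in the cluster 472 to 479 kb inside the gene, 11.8 and 13.1 times. Unlike the summits, this background was close between libraries: the log2 ratio over the 23 pairs had a median of 0.01 (interquartile range -0.16 to 0.08), against -0.06 over all pairs. Within 0.05 of a read, 100% of the backgrounds above the floor in each list were whole numbers of reads spread over 10 kb. With no control library, which the sources used here do not state, the median background stands for 324.5 reads per 10 kb in GSK2879552 and 314 in vehicle, while the floor stands for 6.44 and 6.17 reads per kb of genome.

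**Figure D4:**
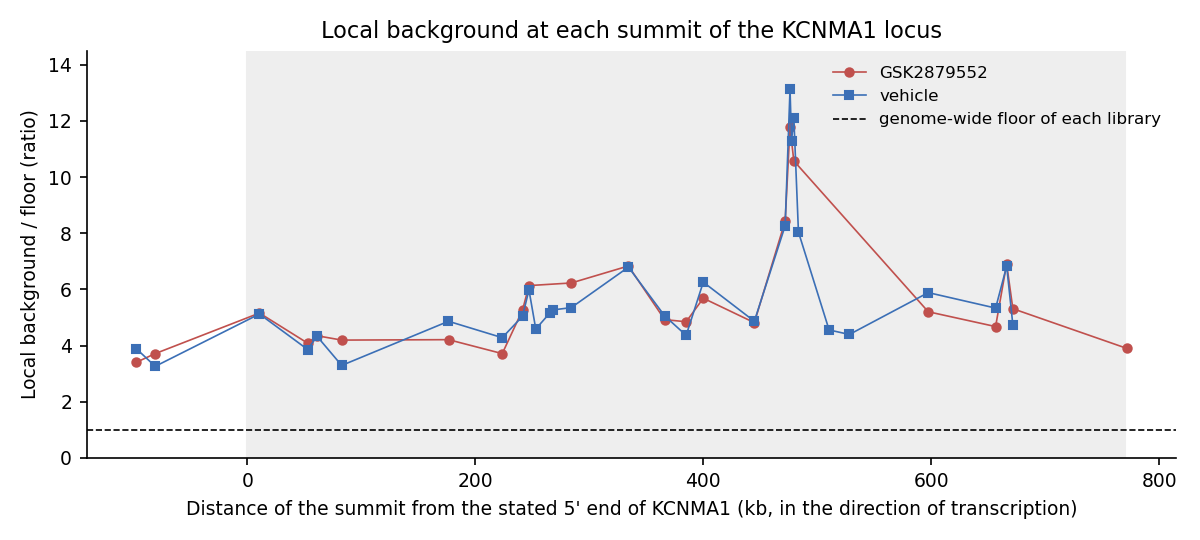
Local background at each summit as a multiple of the genome-wide floor of its library (y axis) against distance in kb from the stated 5′ end of KCNMA1 (x axis), for GSK2879552 (red circles) and vehicle (blue squares). Both libraries run between 3.26 and 6.91 times the floor except in the dense cluster, where they reach 11.8 and 13.1; the dashed line is the floor and the grey band the gene.

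With this background, the same peaks ranked high by fragments and ordinary by fold. The median locus peak had more fragments than 89.6% of the GSK2879552 list and 91.7% of the vehicle list. Its fold enrichment, 6.16 in GSK2879552 and 7.62 in vehicle, exceeded that of 40.5% and 57.7% of the lists. The part of the raised background in the fragment numbers was not tested. The raised background was shared by the neighbouring stretch of chromosome 10: over the windows of 1 Mb from 74.5 to 81.5 Mb the median was 4.68 to 5.55 times the floor in GSK2879552 and 4.73 to 5.12 times in vehicle. From 81.5 to 82.5 Mb it was 3.18 times in GSK2879552 and 3.34 times in vehicle. From 84.5 to 91.5 Mb, a stretch chosen after its values were seen and with at most 11 peaks of a list in a window, it was 1.0 to 1.13 times in GSK2879552 and 1.0 to 1.22 times in vehicle.

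**Figure D5:**
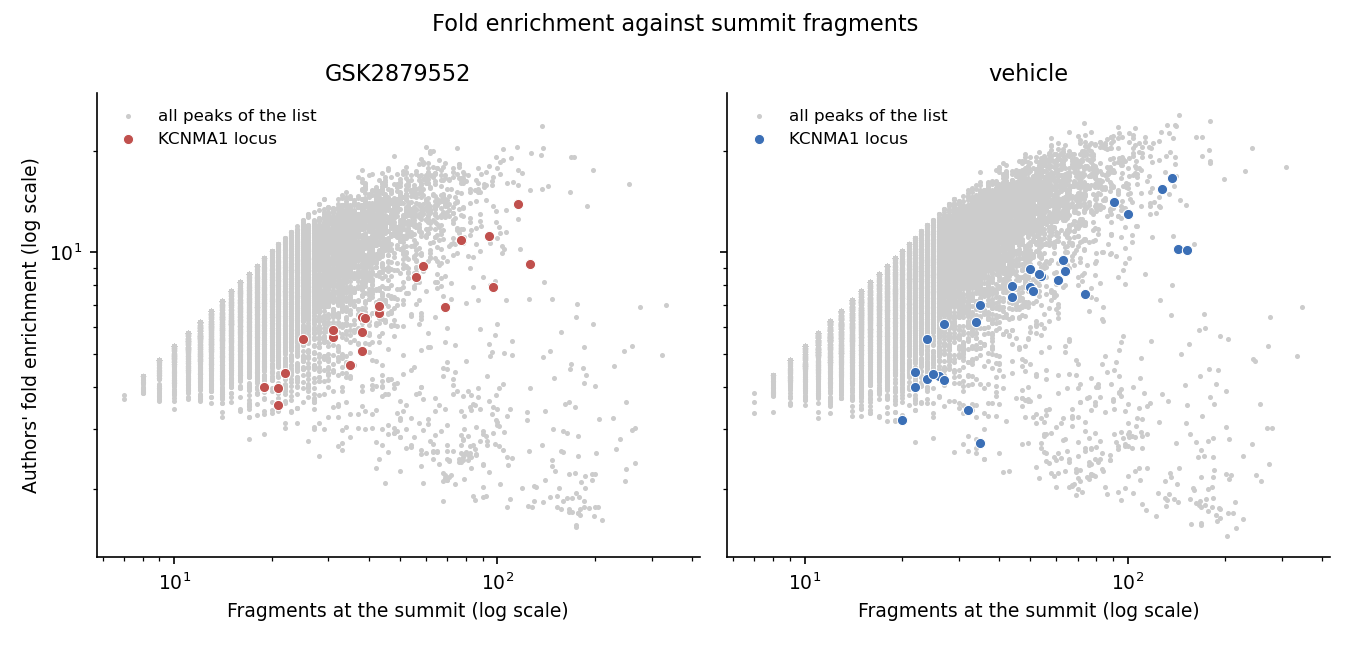
The authors' fold enrichment (y axis, log scale) against fragments at the summit (x axis, log scale) of every peak, in GSK2879552 (left) and vehicle (right). The peaks of the KCNMA1 locus (coloured) lie along the lower edge of the main cloud of their list (grey): for their fragment numbers their fold is low.

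Peaks were denser at KCNMA1 than in most windows of the same length. Of 2692 windows of 1 Mb with a peak, 9 held more GSK2879552 peaks and 10 held more vehicle peaks, and the medians were 4.5 and 7 peaks. The rank depends on where windows start: windows starting at whole megabases divide the locus, and 50 then held more GSK2879552 and 66 more vehicle peaks than the richer of the 2 windows that share it. Just outside the window, the last peak before it had 30 fragments in GSK2879552 (78478853 to 78479086) and 41 in vehicle (78478797 to 78479075), and the first peak after it had 28 in GSK2879552 (79766990 to 79767186) and 17 in vehicle (79608897 to 79609086). Just inside it, the first peaks had 22 and 44 fragments in GSK2879552 and vehicle, and the last 25 and 22. The 1 Mb after the window held 2 GSK2879552 and 5 vehicle peaks, and the 1 Mb before it 11 and 17. Further along chromosome 10 the numbers were again near those of the locus. From 75.5 to 76.5 Mb there were 21 GSK2879552 and 30 vehicle peaks, and from 76.5 to 77.5 Mb 24 and 31.

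The windows most like the locus in peak numbers and median fragment ratio, out of 2518 windows with a pair, were on chromosomes 10, 7 and 2. Chromosome 10 from 76.5 to 77.5 Mb had 24 GSK2879552 and 31 vehicle peaks, a median log2 ratio of -0.35 and a distance of 0.0529 (Euclidean, over the log2 of both peak numbers plus 1 and the log2 ratio). Chromosome 7 from 16.5 to 17.5 Mb had 23 and 28 peaks and a ratio of -0.41, at a distance of 0.116. Chromosome 2 from 150.5 to 151.5 Mb had 22 and 30 peaks and a ratio of -0.44, at a distance of 0.134. The median background in the chromosome 7 and chromosome 2 windows was 1.88 and 1.73 fragments in GSK2879552 and 2.02 and 1.9 in vehicle, under that at KCNMA1, and that of the chromosome 10 window was 6.0 and 5.23.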

How the data were processed

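FOXA2 ChIP-seq of PC3 cells was deposited as 1 peak list per group, each named in the labels of both lanes of that group. Sample descriptions call the assay ATAC-seq, while titles and the series name FOXA2 ChIP-seq, which was followed. Groups come from the agent label, since the treatment text of the vehicle samples also names GSK2879552. The tools were MACS2 2.1.2, BWA 0.7.2 and SAMtools 0.1.18 on the hg19 build, per the submitters' processing notes. What options and threshold were set, how duplicate reads were treated and whether a control library entered were not given in the sources. The authors' deposited fold enrichment is the ratio of summit coverage to local background with a pseudocount of 1, the deposited −log10 p-value tests that coverage, and the authors' score holds −log10 q times 10. As deposited, these serve only to rank or filter peaks within a list.

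Fragments and background at each summit were solved from fold and −log10 p under MACS2's Poisson model. Every one of the 24 GSK2879552 and 30 vehicle peaks of the locus had exactly 1 matching whole number within 0.001, and on simulated summits drawn for each list 100% of 2912 (GSK2879552) and 2915 (vehicle) were recovered. The floor of the background, 1.08 fragments in both lists, was taken as a measure of depth and scaled the ratios. Pairs are mutual best overlapping peaks; bedtools 2.31.1 gave the same overlap counts. Python 3.11.15 with scipy 1.17.1 was used. No test between groups was made. Members, lists and settings were chosen with earlier results of these data known. Sites named are the 10 pairs strongest in vehicle, those of 1 list alone, the extreme ratios and the site nearest to the 5′ end. The fragment reading of each list assumes MACS2's standard definitions.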

Additional observations from a re-analysis of the deposited data

How the results depend on the processing

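Fewer GSK2879552 than vehicle peaks, a smaller covered length and a negative median log2 ratio of fragments were found under each setting run for them. With −log10 q of 10 or more required in each list there were 18 GSK2879552 and 20 vehicle peaks, of which 100% and 90% overlapped; counting only summits in the stated gene, 100% of GSK2879552 peaks overlapped. Both follow from leaving out peaks. Shares of the whole lists under these settings were not computed, so the unfiltered shares of the whole lists are no measure for them. With windows starting at whole megabases, 50 windows held more GSK2879552 and 66 more vehicle peaks than the richer of the 2 windows that share the locus, which this start divides. The median log2 ratio ran from -0.48 (fragments above the local background) to -0.38 (no scaling); scaling by the local background of each summit, added after seeing the data, gave -0.47. Motif shares at summits and peak counts at other BK channel genes were not run, since no genome or annotation of hg19 was used here. Leaving out a lane was not run either. No paired analysis was possible because a single deposited list stands for each group. At sites of 20 to 35 fragments the depth of these libraries leaves wide counting intervals, and whether it set which sites were called was not tested.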
